A study of Mus musculus with 54 samples.

Results

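The genes described here are Apoe, Txnip, Rab37, Slc22a3, Ptpn14, Trib2, Zg16 and Hif3a, called below the Apoe set after their leading gene. They are 8 of the 27297 rows of the study's table of unique molecular identifiers (UMIs, the tags that mark single mRNA molecules), each found by its gene name. They were picked as genes that led an unnamed cluster of unsorted mouse bone marrow progenitors and as their neighbours, so their levels in unsorted cells by Car1, Pf4 and Gata2 are given as a description, with no test. Ratios of the sorted gates over unsorted pools, and of surface sides of unsorted cells, draw on the same cells that chose the members and are not independent evidence of a pattern.

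The study sequenced single myeloid progenitors of mouse bone marrow by MARS-seq, a plate method that reads the 3' end of each mRNA, after cKit enrichment and sorting of cells that lack lineage markers and Sca1 and carry cKit (Lin- cKit+ Sca1-). Cells of 192 wells were amplified together as 1 pool, and a pool is the replicate used here. Groups follow the authors' well table, which differs from the sample labels for 18 of the 54 pools. The table holds 8 mouse identifiers, 1 for each group, so p-values measure only the spread between pools, which may be technical, and a group cannot be told apart from its mouse.

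The well table gives 12 pools as Cebpa KO and 6 as its control, genotypes that the labels of that name give as Cebpa(flox/flox)Mx1-Cre and Cebpa(flox/flox). Of these, Cebpa KO pools 5 to 12 and control pools 5 and 6 carry those labels themselves. Cebpa KO pools 1 and 2 and control pools 1 and 2 carry a Cebpe-/- label, Cebpa KO pools 3 and 4 a Flt3+ Csf1r+ gate label, and control pools 3 and 4 the Mx1-Cre genotype. Mx1-Cre is an interferon-inducible recombinase and is not limited to blood progenitors. The labels record 3 injections of 300 µg poly(I:C) 3 weeks before harvest for 6 samples labelled Cebpa KO or Cebpa control. The well table places all 6 in other groups: Cebpe KO pools 1 and 2, Cebpe control pools 1 and 2, and Flt3+ Csf1r+ pools 3 and 4. So none of the 18 pools compared here as Cebpa KO and control carries such a record. The table gives 4 pools as Cebpe KO (Cebpe-/- in the labels of that name) and 2 as Cebpe control (Cebpe+/+), and none of these 6 pools carries the matching label. Of sorted common myeloid progenitor gates there are 2 pools of the CD41 gate (CD34+ FcgR(low) CD41+), 6 of the Flt3+ Csf1r+ gate, of which 4 carry other labels, and 6 of the Irf8-GFP+ MHCII+ gate, of which 2 carry a Flt3+ Csf1r+ label. By the labels of those names, mice were wild type C57BL/6 for the CD41 and Flt3+ Csf1r+ gates and Irf8-GFP for the Irf8-GFP+ MHCII+ gate. The unsorted group is 16 pools of Lin- cKit+ Sca1- cells of wild type C57BL/6 mice. By the label of each pool, mice were 6 to 8 weeks old, except 14 weeks for all Cebpe KO and Cebpe control pools and for 2 pools each of the Cebpa KO, Cebpa control and Flt3+ Csf1r+ groups.

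As background, Apoe encodes apolipoprotein E, a lipid carrier taken up through lipoprotein receptors, made by macrophages among other cells. Txnip is an alpha-arrestin that binds thioredoxin and restrains glucose uptake. Rab37 is a small GTPase of secretory vesicles, and Slc22a3 is an organic cation transporter that carries monoamines such as histamine. Ptpn14 is a cytosolic tyrosine phosphatase that binds the Hippo effector YAP, Trib2 a pseudokinase that recruits the COP1 ligase to C/EBP alpha, Zg16 a lectin of secretory granules, and Hif3a an alpha subunit of the hypoxia-inducible factors. Gata2, a transcription factor of stem and early progenitor cells, Car1, a carbonic anhydrase of early erythroid cells, and Pf4, a platelet factor of megakaryocytes, served as axes.

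Promoters of 5 members are shown. Hif3a, Trib2 and Ptpn14 differed in level by surface marker in the unsorted cells that chose them, from which nothing is read. Slc22a3 and Txnip were higher in Cebpa KO pools. Each window runs from 250 bases before to 50 after the start site, 300 bases in all, 5' to 3' on the strand of the gene, from RefSeq on GRCm38.p6. The windows are chr7:17062378-17062677 (minus strand) for Hif3a, chr12:15816736-15817035 (minus) for Trib2, chr1:189728018-189728317 (plus) for Ptpn14, chr17:12507655-12507954 (minus) for Slc22a3 and chr3:96557707-96558006 (plus) for Txnip. Capitals mark a match to CCACNCCC, a site of Kruppel-like factors, read on the opposite strand.
Hif3a: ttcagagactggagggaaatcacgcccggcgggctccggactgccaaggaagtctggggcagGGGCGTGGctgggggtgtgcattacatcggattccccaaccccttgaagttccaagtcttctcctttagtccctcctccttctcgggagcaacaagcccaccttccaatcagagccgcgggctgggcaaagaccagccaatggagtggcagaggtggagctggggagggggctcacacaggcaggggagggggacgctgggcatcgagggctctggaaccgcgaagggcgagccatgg
Trib2: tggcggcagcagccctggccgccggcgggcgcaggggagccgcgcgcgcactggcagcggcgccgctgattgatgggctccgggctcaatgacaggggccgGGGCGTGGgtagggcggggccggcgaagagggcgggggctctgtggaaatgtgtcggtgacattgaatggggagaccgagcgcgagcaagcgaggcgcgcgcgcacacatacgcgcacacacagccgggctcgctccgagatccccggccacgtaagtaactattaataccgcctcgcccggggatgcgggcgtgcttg
Ptpn14: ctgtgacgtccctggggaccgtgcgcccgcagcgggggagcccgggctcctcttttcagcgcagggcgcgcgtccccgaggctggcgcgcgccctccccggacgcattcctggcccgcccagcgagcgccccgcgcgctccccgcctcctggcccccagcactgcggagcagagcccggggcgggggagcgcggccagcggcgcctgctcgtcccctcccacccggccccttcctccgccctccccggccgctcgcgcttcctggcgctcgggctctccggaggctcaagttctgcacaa
Slc22a3: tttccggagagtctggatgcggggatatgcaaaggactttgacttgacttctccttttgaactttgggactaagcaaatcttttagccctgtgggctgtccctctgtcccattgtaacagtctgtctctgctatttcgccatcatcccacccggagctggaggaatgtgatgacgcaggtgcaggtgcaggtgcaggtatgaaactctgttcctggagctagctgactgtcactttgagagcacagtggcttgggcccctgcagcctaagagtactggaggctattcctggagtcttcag
Txnip: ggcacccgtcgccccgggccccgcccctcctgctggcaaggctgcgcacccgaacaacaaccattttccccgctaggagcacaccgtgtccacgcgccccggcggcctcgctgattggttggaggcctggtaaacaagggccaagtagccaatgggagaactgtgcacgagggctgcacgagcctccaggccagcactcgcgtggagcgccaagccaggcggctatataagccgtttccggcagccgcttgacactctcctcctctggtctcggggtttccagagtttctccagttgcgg

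RefSeq gave 8 promoters for 6 of the 8 members, Apoe having 3 starts, and Rab37 and Zg16 are named only. CCACNCCC, searched on both strands, was in 2 of the 8 windows, at bases 63 to 70 of Hif3a and 102 to 109 of Trib2, and in 17.6% of 32851 promoters of this length. The motif AGATAA, to which Gata2 and its relatives bind, was in 0 of the 8 and in 11.2% of all promoters. TTGCNNAA, to which C/EBP factors bind, was in 0 of the 8 and in 10.8% of all promoters. The E-box CACGTG was in 0 of the 8 and in 7.15% of all promoters. These matches are a description of the letters in the windows. The printed windows differed in base composition, with a GC content of 63.7% for Hif3a, 71.0% for Trib2, 78.3% for Ptpn14, 52.0% for Slc22a3 and 65.3% for Txnip.

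Of 10260 sorted cells, 8399 (81.9%) had at least 500 UMIs and were kept, with a median of 2646 UMIs. Pools held 140748 to 854479 UMIs. Cebpa itself had 0 to 2 UMIs in each Cebpa KO pool and 35 to 64 in each control pool, including the control pools labelled with Mx1-Cre. Cebpe had 0 UMIs in each Cebpe KO pool and 40 and 21 in the control pools. In 108 wells without a cell, 6279 UMIs were read in all, of which Apoe, Rab37 and Txnip had 2 each, Hif3a 1 and the other members 0.

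Apoe was highest in the CD41 gate and lowest in the Flt3+ Csf1r+ gate. In CPM, the UMIs of a gene scaled to a common total of 1000000 UMIs, it measured 1147 and 1356 in the CD41 pools. It ranged over 409 to 800 (median 717) in Cebpa KO pools, against 373 to 1131 (median 551) in Cebpa control pools. It measured 166, 252, 225 and 162 in Cebpe KO pools, against 430 and 338 in Cebpe control pools. Cebpa KO and Cebpa control pools overlapped, and Cebpe KO pools lay below their controls. Apoe ranged over 24.5 to 121 (median 56.6) in the Flt3+ Csf1r+ gate and 89.1 to 384 (median 122) in the Irf8-GFP+ MHCII+ gate, against 252 to 423 (median 315) in unsorted pools. In order of the mean, the CD41 gate (1252 ± 148, SD, n = 2) was followed by Cebpa KO (652 ± 142, n = 12), Cebpa control (624 ± 261, n = 6), Cebpe control (384 ± 64.8, n = 2), unsorted (319 ± 51.6, n = 16), Cebpe KO (201 ± 44.4, n = 4), the Irf8-GFP+ MHCII+ gate (170 ± 114, n = 6) and the Flt3+ Csf1r+ gate (59.5 ± 33.9, n = 6). The CD41 gate did not overlap Cebpa KO in pool values, and Cebpe KO lay just below unsorted, while the other neighbours in that order overlapped. In summed pools, fewer cells that make a transcript and less of it per cell cannot be told apart.

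Rab37 was highest in the CD41 gate, as Apoe was. It measured 237 and 262 CPM in the CD41 pools. It ranged over 53.0 to 190 CPM (median 73.6) in Cebpa KO pools, against 6.76 to 29.4 CPM in Cebpa control pools, and over 33.6 to 73.3 CPM in the Irf8-GFP+ MHCII+ gate, against 10.1 to 39.9 CPM in unsorted pools. Txnip was highest in Cebpa KO, with 234 to 405 CPM (median 315), against 50.7 to 136 CPM in Cebpa control pools, and measured 275 and 172 CPM in the CD41 gate. Slc22a3 was also highest in Cebpa KO, with 54.1 to 186 CPM, against 3.30 to 29.4 CPM in Cebpa control pools, and measured 10.7 and 2.81 CPM in the CD41 gate.

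Ptpn14, Trib2 and Zg16 were low or absent in the 3 sorted gates, and Hif3a was low in 2 of them. Trib2 had 0 UMIs in the CD41 and Flt3+ Csf1r+ gates, which puts it at least 4.95-fold lower in the CD41 gate and at least 19.6-fold lower in the Flt3+ Csf1r+ gate than in unsorted cells, taking a floor of 3 counts over the gate. Zg16 had 0 UMIs in the Flt3+ Csf1r+ and Irf8-GFP+ MHCII+ gates, at least 28.5-fold and at least 35.3-fold lower than in unsorted cells. Over all cells of a group, Ptpn14 stood at 2.74 CPM in the CD41 gate, 1.39 in the Flt3+ Csf1r+ gate and 4.20 in the Irf8-GFP+ MHCII+ gate, against 22.3 CPM in unsorted cells. Hif3a stood at 8.22, 1.39 and 0.839 CPM in the same gates, against 26.5 CPM in unsorted cells.

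**Figure D1:**
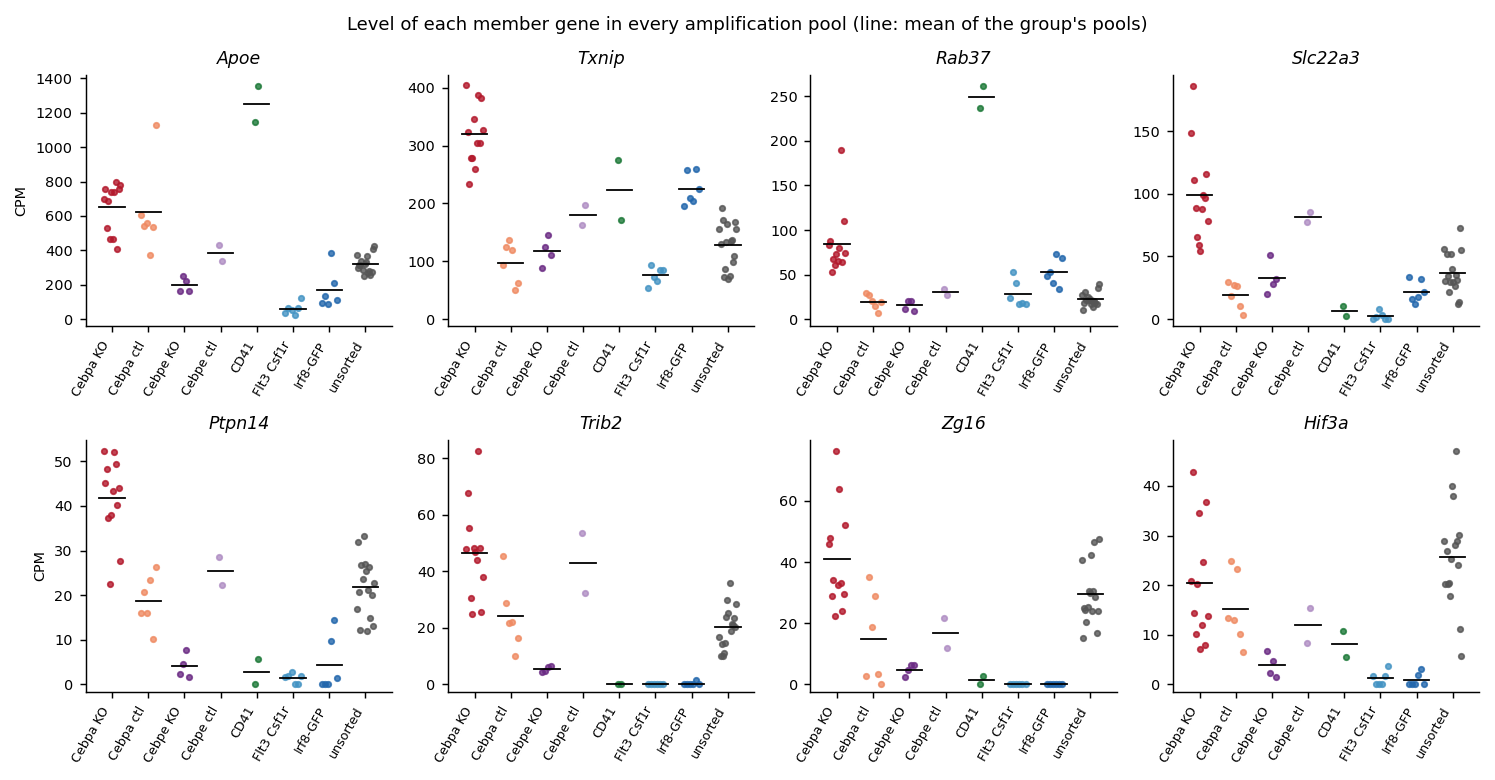
Each point is the level of a member in 1 pool, in CPM (vertical axis), for the 8 groups along the horizontal axis, and black lines are group means. Apoe and Rab37 are highest in the CD41 gate, Txnip and Slc22a3 in Cebpa KO pools, and Trib2 and Zg16 are at or near 0 in the sorted gates.

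At a fixed depth the share of cells with an Apoe UMI kept the same extremes. After thinning each cell to 500 UMIs, 46.4% of 336 CD41-gate cells had an Apoe UMI (exact binomial 95% interval 41.0 to 51.9%), against 19.9% of 2732 unsorted cells (18.4 to 21.5%). The share was 3.18% of 1132 cells in the Flt3+ Csf1r+ gate, the lowest of the 8 groups. Before thinning, these shares were 78.6% in the CD41 gate and 13.1% in the Flt3+ Csf1r+ gate, against 40.7% in unsorted cells, at median depths of 1843.5, 2373.5 and 3101 UMIs per cell. Intervals cover counting error only.

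All members but Hif3a were higher in cells with few UMIs in most unsorted pools, and Apoe, Txnip and Rab37, like Gata2, in every one. How many of all genes had this slope was not worked out, so the count of members is a description only. In unsorted cells, Apoe stood at 2311 CPM in 315 cells of under 1000 UMIs, 1195 CPM in 475 cells of 1000 to under 2000, 353 CPM in 953 cells of 2000 to under 4000, and 117 CPM in 989 cells of 4000 or more. Txnip declined along the same 4 bins, at 796, 313, 126 and 82.1 CPM, and so did Rab37, at 184, 81.3, 29.3 and 5.50 CPM. Apoe, Gata2, Txnip and Rab37 were each higher in cells under 2000 UMIs than in cells of 4000 or more in 16 of 16 unsorted pools, Slc22a3 and Ptpn14 in 15 of 16, and Trib2 and Zg16 in 12 of 16. For Hif3a this held in 7 of 16 pools, with 42.8, 15.4, 20.4 and 30.0 CPM along the bins. Apoe showed the same slope in 12 of 12 Cebpa KO and 6 of 6 Cebpa control pools, and in both CD41 pools, at 2697, 1768, 1218 and 325 CPM. In the Flt3+ Csf1r+ gate Apoe stayed between 50.2 and 85.9 CPM in all 4 bins and was higher in the shallower cells in 5 of 6 pools. The part of cell depth in the levels given above was not tested. In wells without a cell, Apoe took 2 of 6279 UMIs.

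**Figure D2:**
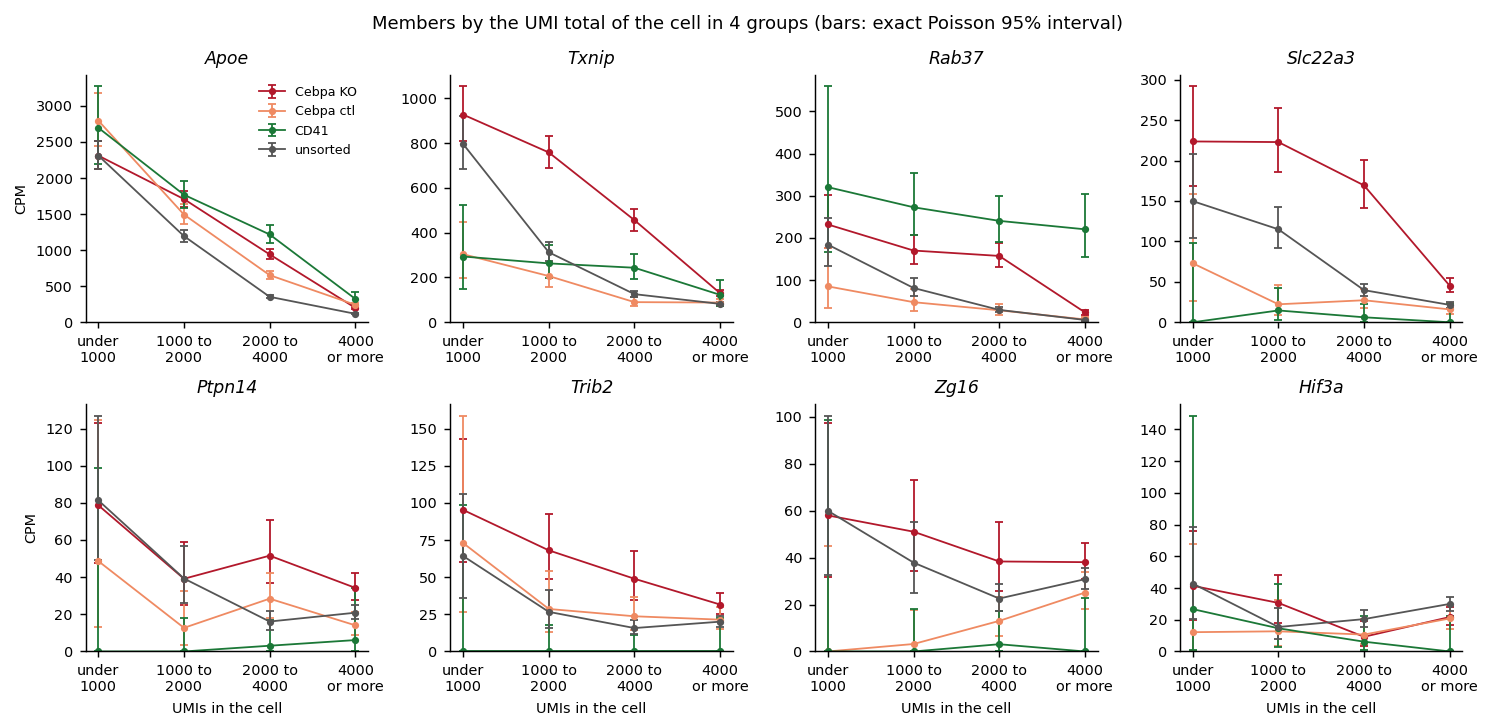
Level of each member in CPM (vertical axis) in cells binned by their UMI total (horizontal axis), for Cebpa KO, Cebpa control, CD41-gate and unsorted cells, with exact Poisson 95% intervals. Apoe, Txnip, Rab37 and Slc22a3 are lower at the highest than at the lowest depth in Cebpa and unsorted cells, while Hif3a in unsorted cells is 42.8 CPM at the lowest and 30.0 CPM at the highest depth.

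In unsorted cells the set split along the Car1 share, which is the percentage of a cell's UMIs from Car1. Cells without a Car1 UMI (767) were set beside 3 bins of 655 cells each, cut at 0.0849% and 0.494%. Hif3a stood at 3.39 CPM without Car1 and at 4.84, 36.0 and 49.5 CPM in the low, middle and high bins. Zg16 followed the same course, at 3.39, 8.88, 38.3 and 54.3 CPM, as did Ptpn14, at 6.21, 4.84, 24.3 and 43.9 CPM. Trib2 was highest in the middle bin, at 3.95, 6.86, 34.4 and 29.0 CPM. The 4 genes thus had their highest levels among Car1-bearing cells.

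Apoe had no such order, at 393 CPM without Car1 and 147, 411 and 321 CPM in the 3 bins. Rab37 was highest without Car1, at 41.2 CPM, with 15.3, 22.7 and 15.6 CPM in the bins. Slc22a3 ran at 44.6, 20.6, 43.0 and 39.0 CPM, and Txnip at 121, 91.6, 148 and 145 CPM. An early progenitor label, read as high Gata2 with low Car1, therefore does not describe Hif3a, Zg16, Ptpn14 or Trib2. Of the others, Rab37 and, by little, Slc22a3 were highest without Car1, while Apoe and Txnip were highest in the middle bin.

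All 8 members were higher in the 624 unsorted cells with a Gata2 UMI than in the 2108 cells without one. The share of all genes higher in these cells was not worked out, so this count is a description only. Correlation with Gata2, given below, was close to none for Zg16 and Hif3a. Apoe stood at 686 CPM with a Gata2 UMI (exact Poisson 95% interval 653 to 722) and 204 CPM without (194 to 215). Slc22a3 stood at 75.8 CPM with and 24.9 CPM without, Rab37 at 41.0 and 16.4 CPM, Ptpn14 at 41.9 and 16.5 CPM, Txnip at 190 and 110 CPM, Hif3a at 39.7 and 22.7 CPM, Trib2 at 29.9 and 17.6 CPM, and Zg16 at 39.3 and 26.8 CPM. The cells with a Gata2 UMI had the lower median depth, 2587.5 UMIs against 3222 UMIs. Apoe was higher with a Gata2 UMI in each depth bin, at 3180, 2569, 1002 and 201 CPM, against 1841, 657, 225 and 90.3 CPM without. The contrast was widest without Car1, where Apoe stood at 1382 CPM in 150 cells with a Gata2 UMI (1246 to 1529) and 214 CPM in 617 cells without. In the pooled Cebpa and Cebpe control cells, which did not choose the members, Apoe stood at 924 CPM in 298 cells with a Gata2 UMI and 377 CPM in 842 cells without.

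**Figure D3:**
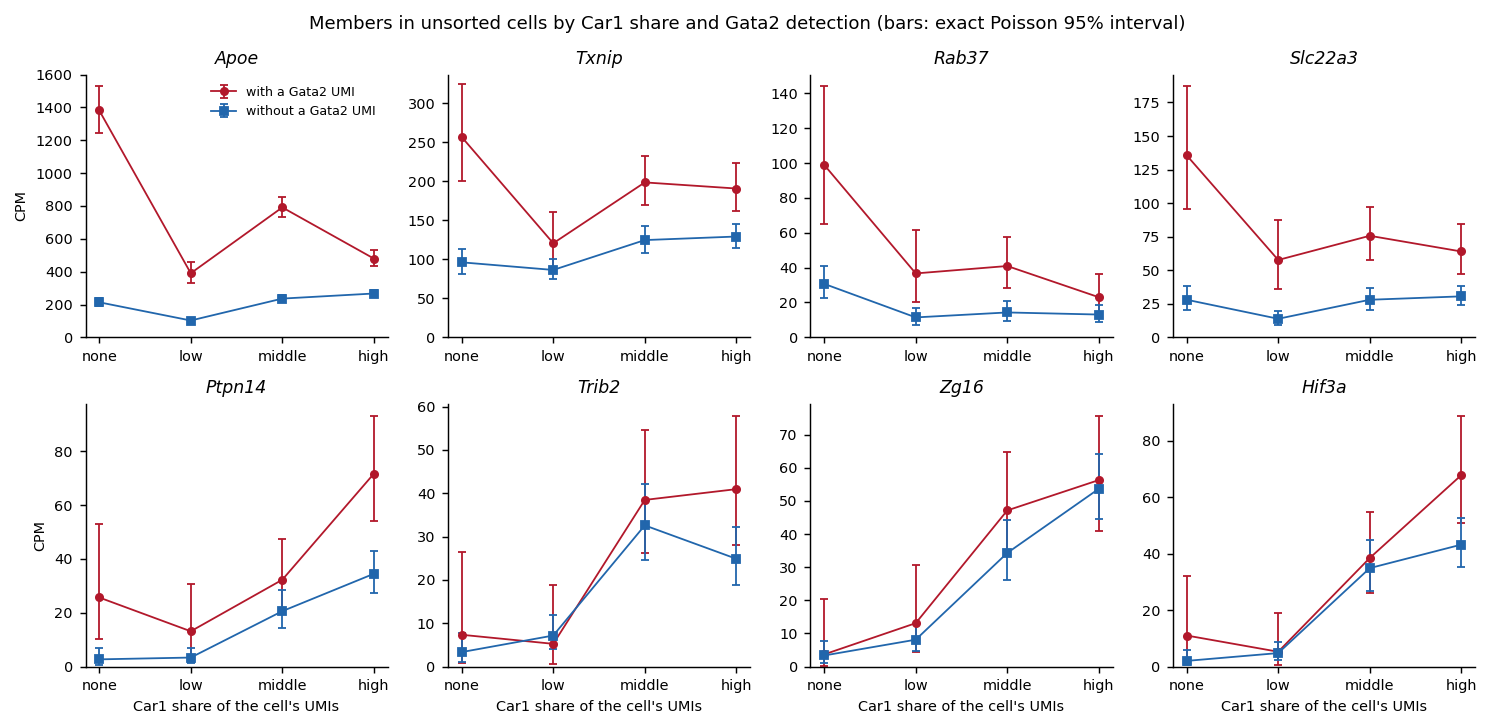
Level of each member in CPM (vertical axis) in unsorted cells grouped by Car1 share (horizontal axis) and by whether a Gata2 UMI was seen, with exact Poisson 95% intervals. Apoe peaks at 1382 CPM in cells with Gata2 and without Car1, while Hif3a, Zg16, Ptpn14 and Trib2 are near 0 at the left and high at the right.

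The Pf4 axis separated the set less clearly. In 119 unsorted cells with a Pf4 UMI, Apoe stood at 488 CPM, against 305 CPM in 2613 cells without, Rab37 at 50.8 against 20.5 CPM, and Slc22a3 at 69.8 against 34.8 CPM. In all, 7 members were higher with a Pf4 UMI, and Txnip was lower, at 118 against 128 CPM. How many of all genes were higher with a Pf4 UMI was not worked out, so this count is a description only. Only 3 members, Apoe, Rab37 and Slc22a3, were higher after thinning each cell to 1000 UMIs. In the CD41 gate, 271 cells with a Pf4 UMI had 1061 CPM of Apoe, and 65 cells without one had 2513 CPM.

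Across the 2732 unsorted cells, Apoe correlated most with Gata2 (Pearson r = 0.50, on log2 of 1 plus UMIs per 1000). Among members r with Apoe was 0.44 for Txnip, 0.28 for Slc22a3, 0.23 for Rab37, 0.19 for Ptpn14, 0.15 for Zg16, 0.14 for Trib2 and 0.10 for Hif3a. With Gata2, r was 0.28 for Txnip, 0.21 for Slc22a3, 0.16 for Rab37, 0.08 for Trib2, 0.06 for Ptpn14, 0.04 for Zg16 and 0.02 for Hif3a. Of 9596 genes seen in at least 1% of cells, the 10 non-members most like Apoe included Gata2, Ptprcap (0.36), Gpr56 (0.36), S100a10 (0.35), Vamp5 (0.33), Muc13 (0.33), Mfsd2b (0.32), Nfe2 (0.30) and Cbfa2t3 (0.28). Thinned to 1000 UMIs in 2417 cells, r with Apoe was 0.41 for Gata2, 0.27 for Txnip, 0.19 for Slc22a3 and 0.18 for Rab37. In 1140 Cebpa and Cebpe control cells, which did not choose the members, r with Apoe was 0.43 for Gata2 and 0.25 for Txnip. There it was 0.25 for Slc22a3, 0.21 for Rab37, 0.14 for Ptpn14, 0.14 for Trib2, 0.04 for Zg16 and 0.03 for Hif3a. Cells share pools and differ in depth, so these values describe the cells and carry no test.

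In the unsorted cells, which chose the members, the same 4 genes also differed in level by surface protein. This is given as a description. Index sorting recorded CD34 and the Fc gamma receptor (FcgR), which together separate myeloid progenitor classes, for 2708 unsorted cells, and each plate was split at its median intensity. On the FcgR-low side, Hif3a averaged 39.4 ± 14.7 CPM, against 5.48 ± 5.88 CPM on the FcgR-high side (SD, n = 16 pools each). Zg16 averaged 44.0 ± 16.4 CPM on the low side and 8.48 ± 6.53 CPM on the high side, Trib2 30.4 ± 11.4 and 6.16 ± 6.05 CPM, and Ptpn14 31.2 ± 10.1 and 7.46 ± 4.36 CPM. Each of these genes was higher on the low side in 16 of 16 pools. The fitted log2 ratio was 2.64 for Hif3a (SE 0.28), 2.25 for Zg16, 2.13 for Trib2 and 1.92 for Ptpn14, and all 4 were called higher. These genes held few UMIs on the FcgR-high side and passed the filter on low counts through the low side. The cells are also those that chose the members, so nothing is read from these 4 calls. Over 6846 genes tested with edgeR, 33.1% were called higher and 30.6% lower on the FcgR-low side, which is the background for the 4 of 8 members called higher and the 1 called lower.

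Rab37 was the member that fell on the FcgR-low side, to 18.6 ± 12.8 CPM, against 28.9 ± 9.59 CPM on the high side (log2 -0.82, adjusted p = 0.0020, lower in 13 of 16 pools). With the lowest and highest of 3 intensity bins per plate, Rab37 did not pass the filter on low counts for either marker and had no value. Apoe (log2 -0.08), Slc22a3 (0.32) and Txnip (0.12) were not called, with adjusted p of 0.49, 0.093 and 0.30. Beside these, Car1 averaged 5056 ± 476 CPM on the low side and 502 ± 231 CPM on the high side. The low-side cells were also deeper, with a median of 4153.5 UMIs against 2630.5 UMIs, and the part of depth was not tested. Members are not called when the fit has no pool term, because the filter on low counts then leaves only 2 of them to test.

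CD34 gave nearly the same split. On the CD34-low side, Hif3a averaged 40.8 ± 16.3 CPM, against 2.82 ± 4.14 CPM on the high side, and Trib2 averaged 31.5 ± 12.4 CPM against 3.97 ± 4.26 CPM. The sides did not overlap for Trib2 and overlapped slightly for Hif3a. Hif3a (log2 3.50), Zg16 (2.79), Trib2 (2.73) and Ptpn14 (2.21) rose in 16 of 16 pools each. The limit given for the FcgR calls of these genes holds here too. Txnip rose by 0.24 (adjusted p = 0.041, 12 of 16 pools), a call lost with DESeq2, with cells of at least 1000 UMIs and without the 2 plates whose CD34 medians stood apart, where it was 0.07. Rab37 fell by 0.79 (adjusted p = 0.0017, lower in 13 of 16 pools). Of 6845 genes, 33.1% were called higher and 29.6% lower. Apoe was -0.14 (adjusted p = 0.22) with all plates, and fell without those 2 plates by 0.26 (adjusted p = 0.0088), as it did for FcgR by 0.28 (adjusted p = 0.0037).

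The level of Apoe differed by the combination of both markers. It was 710 CPM in 183 CD34-high FcgR-low cells and 603 CPM in 183 CD34-low FcgR-high cells, and 287 CPM in 1175 cells low for both and 282 CPM in 1167 cells high for both. Txnip was likewise higher in cells high for a single marker than in the rest, at 215, 249, 129 and 101 CPM for the classes as listed. So were Slc22a3, at 93.0, 61.0, 36.7 and 27.0 CPM, and Rab37, at 50.5, 46.9, 14.8 and 27.0 CPM. Their order within these classes was not the same. Hif3a was highest in cells low for both, at 7.97, 30.5, 42.8 and 2.59 CPM. The median depth was 1613, 2220, 4579 and 2738 UMIs per cell, so the sides with most Apoe were also the shallowest.

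**Figure D4:**
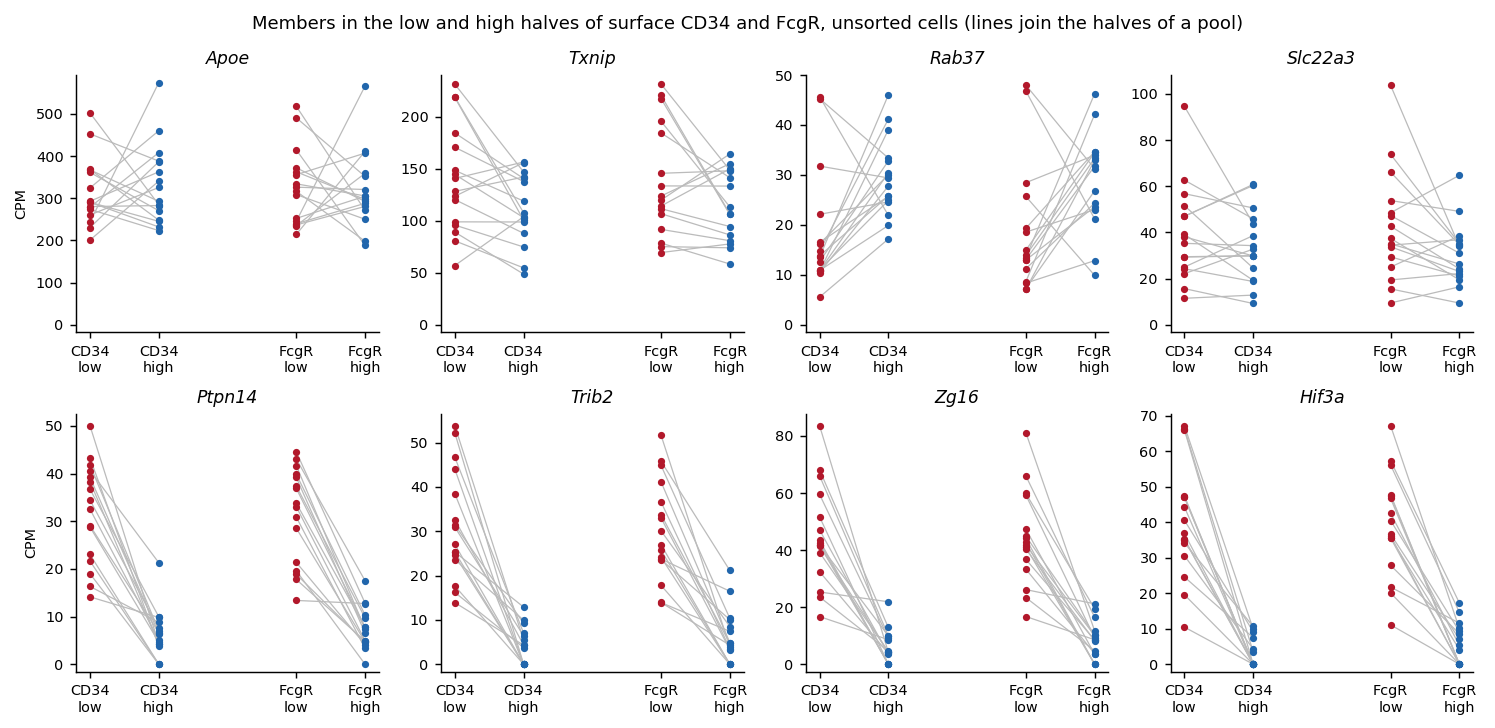
Level of each member in CPM (vertical axis) on the low and high sides of surface CD34 and FcgR, 1 point per unsorted pool, with lines joining the sides of a pool. Hif3a, Zg16, Trib2 and Ptpn14 lie higher on the low side in every pool, and Rab37 lies lower on it in 13 of 16 pools.

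A further 12 pools, of Cebpa KO, Cebpa control and Cebpe mice, were also indexed (1670 cells). There the CD34-low side had less Apoe, 319 ± 165 CPM against 714 ± 533 CPM on the high side (SD, n = 12 each), lower in 11 of 12 pools (log2 -1.05, adjusted p = 0.00027). Slc22a3 (-1.24), Rab37 (-1.52) and Txnip (-0.53) fell too, so 4 of 7 members tested were called lower, while 12.9% of 6325 genes were called lower and 11.3% higher. For FcgR, Rab37 alone was called, lower by 1.11 on the log2 scale (adjusted p = 0.0053), beside 17.1% of 6556 genes called lower and 13.3% higher. With 7 members tested for each marker, none was called higher on the low side, so the unsorted split of Hif3a, Zg16, Trib2 and Ptpn14 was not called here. Trib2 was lower on the FcgR-low side in all indexed Cebpa KO pools, at 39.3, 54.8, 50.8 and 13.0 against 67.7, 96.4, 66.6 and 49.9 CPM. It was higher there in the Cebpa control and Cebpe control pools, and Cebpe KO pools were mixed. In the Cebpa KO cells of these pools, 199 cells low for both markers had 298 CPM of Apoe, against 1574 CPM in 195 cells high for both, which also had 278 CPM of Slc22a3 and 407 CPM of Gata2. The median depth was 3989 UMIs in the cells low for both and 1137 UMIs in the cells high for both.

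Testing the difference of these ratios, the 12 pools minus unsorted, 7 members differed for CD34: Apoe by -0.90, Slc22a3 by -1.41, Txnip by -0.79, Hif3a by -2.33, Ptpn14 by -1.40, Trib2 by -1.71 and Zg16 by -1.85 (adjusted p between 5.4e-05 and 0.033), while 6.74% of 7401 genes were called lower and 11.4% higher. Rab37 differed by -0.71 (adjusted p = 0.15). For FcgR, Hif3a (-2.07), Ptpn14 (-1.45) and Trib2 (-1.62) differed, beside 5.18% of 7332 genes called lower and 10.1% higher. The 12 pools mix genotypes, and the unsorted pools come from other plates and mice, so genotype, mouse and plate cannot be told apart here. The unsorted ratios also come from the cells that chose the members, so nothing is read from these differences.

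Loss of Cebpa, the C/EBP alpha factor that progenitors need to enter the granulocyte and monocyte lines, was accompanied by higher Slc22a3, Rab37 and Txnip, while Apoe, the leading gene, was not called. Slc22a3 averaged 99.1 ± 38.0 CPM in Cebpa KO pools and 19.2 ± 10.5 CPM in Cebpa control pools (SD, n = 12 and 6). It rose by a log2 ratio of 2.15 (SE 0.26, adjusted p = 5.2e-07), and the groups did not overlap. Rab37 averaged 84.1 ± 36.5 CPM in Cebpa KO and 19.7 ± 8.19 CPM in control pools (log2 1.96, SE 0.27, adjusted p = 4.2e-06). Txnip averaged 319 ± 53.4 CPM in Cebpa KO and 97.7 ± 34.9 CPM in control pools (log2 1.60, SE 0.16, adjusted p = 2.7e-08). Neither gene overlapped between the groups.

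Ptpn14 rose by 1.04 (adjusted p = 0.0036), at 41.7 ± 9.23 CPM in Cebpa KO and 18.7 ± 5.87 CPM in control pools. Zg16 rose by 1.20 (adjusted p = 0.028), at 40.8 ± 16.7 CPM in Cebpa KO and 14.8 ± 15.0 CPM in control pools. Trib2 rose by 0.81 (adjusted p = 0.028), at 46.7 ± 16.7 CPM in Cebpa KO and 24.1 ± 12.2 CPM in control pools. Apoe averaged 652 ± 142 CPM in Cebpa KO and 624 ± 261 CPM in control pools (log2 -0.00, SE 0.19). Hif3a was too low to test, at 20.5 ± 11.9 CPM in Cebpa KO and 15.2 ± 7.29 CPM in control pools. In all, 6 of 7 members tested were called higher and 0 lower, with a median log2 ratio of 1.20, against 9.41% of 6419 genes called higher, 9.41% called lower and a median of 0.01 over all genes.

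The rise of Slc22a3, Rab37 and Txnip held within both sequencing batches. In batch SB23 the log2 ratios were 2.51 for Slc22a3, 1.38 for Rab37 and 1.51 for Txnip, and in batch SB29 they were 1.98, 2.32 and 1.67, each called. Ptpn14 was 1.31 in SB23 and 0.91 in SB29 (adjusted p = 0.055 and 0.083), Trib2 was 0.49 and 1.05 (0.53 and 0.059), and Apoe was 0.23 and -0.10 (0.43 and 0.82), none called. Zg16 was 0.95 in SB23 (adjusted p = 0.33) and had no value in SB29. Control pools 5 and 6 share a plate that stands apart, with 662 and 498 CPM of Car1. Without them Trib2 (0.66) and Zg16 (0.84) lost their calls (adjusted p = 0.11 each), and Apoe was 0.34 (adjusted p = 0.13). Leaving out control pool 2, 5 or 6 alone ended the Trib2 call, and leaving out control pool 1 or 5 alone ended the Zg16 call.

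The makeup of the pools moved with genotype. The 11 neutrophil markers summed to 132 to 1331 CPM in Cebpa KO pools and 10544 to 19463 CPM in control pools, with Ltf at 0 in both groups. The 14 erythroid markers, of which 13 had a UMI, summed to 14271 to 16982 CPM in Cebpa KO pools and 9126 to 14518 CPM in control pools. The 14 macrophage markers, considered because macrophages make Apoe, summed to 16.1 to 204 CPM in Cebpa KO pools and 47.5 to 244 CPM in control pools, with Cd5l, Emr1, Mrc1 and Spic at 0 in Cebpa KO and Spic at 0 in control. Cells were also shallower in Cebpa KO, with a median of 1834.5 UMIs against 2566.5 UMIs. The part of these shifts in the member ratios was not tested.

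The members are next given by bins of depth and of Car1 share, and in cells with a Gata2 UMI. Cells of the same bin can still differ in type between the groups, so the makeup is not held fixed. By depth bin, from under 1000 UMIs up to 4000 or more, Slc22a3 stood at 224, 223, 169 and 45.3 CPM in Cebpa KO cells, against 72.9, 22.2, 27.2 and 15.9 CPM in Cebpa control cells. Txnip stood at 928, 759, 456 and 130 CPM in Cebpa KO, against 304, 207, 90.0 and 88.1 CPM in control, while Apoe was lower in Cebpa KO in the first bin and the last and higher in the 2 between. By Car1 share, from none to high, Txnip stood at 640, 353, 423 and 230 CPM in Cebpa KO, against 53.9, 80.1, 136 and 128 CPM in control, and Rab37 at 203, 138, 110 and 43.0 CPM against 20.7, 21.3, 19.8 and 18.4 CPM. Both genes were higher in Cebpa KO in every bin, and the excess was smallest in the high Car1 bin.

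Within cells that had a Gata2 UMI, summed per pool, Slc22a3 averaged 156 ± 82.7 CPM in Cebpa KO and 42.7 ± 23.4 CPM in control pools and rose by 1.81 (SE 0.35, adjusted p = 0.00091). Txnip averaged 532 ± 203 CPM in Cebpa KO and 178 ± 50.3 CPM in control pools and rose by 1.52 (adjusted p = 0.00014), without overlap. Rab37 averaged 163 ± 92.5 CPM in Cebpa KO and 49.0 ± 29.0 CPM in control pools and rose by 1.68 (adjusted p = 0.0063), a call that held in neither batch alone, with 1.12 in SB23 (adjusted p = 0.31) and no value in SB29, where it did not pass the filter. Apoe averaged 1151 ± 405 CPM in Cebpa KO and 1145 ± 216 CPM in control pools (log2 0.07, adjusted p = 0.87). Thus 3 of the 4 members tested were called higher and 0 lower, against 4.6% of 2781 genes called higher and 2.23% lower. Within batches Slc22a3 was 1.73 in SB23 and 1.86 in SB29, and Txnip was 1.44 and 1.56, all called.

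In the Cebpe KO, which lacks the C/EBP epsilon factor of late granulocyte development, the set was low. Apoe averaged 201 ± 44.4 CPM in Cebpe KO and 384 ± 64.8 CPM in Cebpe control pools (SD, n = 4 and 2) and fell by 0.81 on the log2 scale (adjusted p = 0.00062). Trib2 averaged 5.43 ± 0.98 CPM in Cebpe KO and 43.1 ± 15.1 CPM in control pools and fell by 2.79 (adjusted p = 8.9e-05). Ptpn14 averaged 4.06 ± 2.78 CPM in Cebpe KO and 25.4 ± 4.48 CPM in control pools and fell by 2.43 (adjusted p = 0.0041), and Slc22a3 averaged 32.8 ± 13.0 CPM in Cebpe KO and 81.4 ± 5.79 CPM in control pools and fell by 1.21 (adjusted p = 0.0034). Rab37 (log2 -0.86, adjusted p = 0.18) and Txnip (-0.48, 0.067) were not called, and Zg16 and Hif3a were too low to test. For all 8 members the Cebpe KO pools lay below both control pools, with only 11 UMIs of Zg16 and 8 of Hif3a in Cebpe KO. The share of all genes without overlap was not worked out, so nothing is read from that count.

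Of 6 members tested, 4 were called lower and 0 higher, with a median of -1.03, against 9.84% of 7369 genes called lower, 13.5% called higher and a median of -0.01. The Ptpn14 call was lost without control pool 1 (adjusted p = 0.092) and the Slc22a3 call without control pool 2 (0.056), and Txnip was called lower without Cebpe KO pool 3 (-0.59, 0.034). Beside the members, Car1 fell by 1.70 and Pf4 by 2.29, and Gata2 was at -0.58 (adjusted p = 0.054). Erythroid markers summed to 3024 to 4458 CPM in Cebpe KO pools, against 10547 and 12435 CPM in the control pools, and neutrophil markers to 49805 to 55316 CPM, against 14406 and 16005 CPM. Their part was not tested. By the label of each pool, both Cebpe control pools but only Cebpe KO pools 1 and 2 carry a poly(I:C) record. The part of that treatment was not tested either. Grouped by the sample labels instead of the well table, the sign reverses, with Apoe at 1.71, Ptpn14 at 2.74, Slc22a3 at 1.63 and Trib2 at 2.82. Yet both pools labelled Cebpe control had 0 Cebpe UMIs, and the pools labelled Cebpe KO had 1, 0, 20 and 34. The label grouping thus does not separate pools with and without Cebpe transcript, as the well table does.

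Against unsorted cells, the CD41 gate, which enriches megakaryocyte progenitors, had more Apoe and Rab37. Apoe averaged 1252 ± 148 CPM in the CD41 gate and 319 ± 51.6 CPM in unsorted pools and rose by 2.11 (SE 0.27, adjusted p = 6.0e-08). Rab37 averaged 250 ± 17.2 CPM in the CD41 gate and 22.4 ± 7.72 CPM in unsorted pools and rose by 3.62 (adjusted p = 3.0e-14). Txnip rose by 0.93 (adjusted p = 0.0044), a call lost within batch SB17 (0.54, adjusted p = 0.069) and without CD41 pool 1 (0.52). Slc22a3 had 5 UMIs in the CD41 gate, Ptpn14 2, Zg16 1 and Trib2 0, against 360, 220, 293 and 201 UMIs in unsorted cells. These 4 were called lower, but they passed the filter on low counts only through the unsorted cells in which they were chosen, so nothing is read from these calls. Of summed counts, the log2 ratio was -3.02 for Ptpn14 (95% counting interval -6.08 to -1.15) and -4.44 for Zg16 (-9.75 to -1.95). Hif3a was -1.51 (adjusted p = 0.056). The Ptpn14 call was lost without CD41 pool 1 (-1.82) and the Slc22a3 call without CD41 pool 2 (-1.64). In all, 3 members were called higher and 4 lower, beside 19.5% and 21.5% of 8720 genes. Within SB17, Apoe was 2.01 and Rab37 3.60. At matched depth the order held, with Apoe at 2697, 1768, 1218 and 325 CPM in the CD41 gate along the 4 depth bins, against 2311, 1195, 353 and 117 CPM in unsorted cells, and Rab37 at 320, 273, 241 and 221 CPM in the CD41 gate, against 184, 81.3, 29.3 and 5.50 CPM. Megakaryocyte markers summed to 14907 CPM in the CD41 gate and 311 CPM in unsorted cells, and macrophage markers to 63.0 and 105 CPM.

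In the Flt3+ Csf1r+ gate, Apoe averaged 59.5 ± 33.9 CPM, against 319 ± 51.6 CPM in unsorted pools (log2 -2.26), and Txnip was at -0.63. Slc22a3 had 5 UMIs there, Ptpn14 and Hif3a 4 each, and Trib2 and Zg16 0, so that these 5 were testable only through the unsorted cells. Called lower were 7 members, all but Rab37 (0.46, adjusted p = 0.11), beside 26.7% of 8720 genes called lower and 26.7% higher, and nothing is read from that count. In the Irf8-GFP+ MHCII+ gate, 2 members rose, Rab37 at 52.9 ± 15.6 CPM (log2 1.26) and Txnip at 225 ± 28 CPM, against 128 ± 39.0 CPM in unsorted pools (log2 0.82, without overlap). The other 6 were called lower, with Apoe at -0.89 and Ptpn14 at -2.31, and nothing is read from that count either. Trib2 had 1 UMI there and Hif3a 3 UMIs, with log2 ratios of summed counts of -6.18 (95% counting interval -11.5 to -3.69) and -4.98 (-7.27 to -3.42). Here 28.8% of genes were called higher and 27.1% lower. The Slc22a3 call in this gate (-0.70, adjusted p = 0.044) was lost without any 1 of gate pools 2, 3, 4 and 6. Macrophage markers summed to 653 CPM in the Irf8-GFP+ MHCII+ gate and 105 CPM in unsorted cells. No unsorted pool was sequenced in the batches of these 2 gates, so batch and gate cannot be told apart. Grouped by the sample labels, Slc22a3 was 0.14 and Txnip 0.59 in the Flt3+ Csf1r+ gate.

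**Figure D5:**
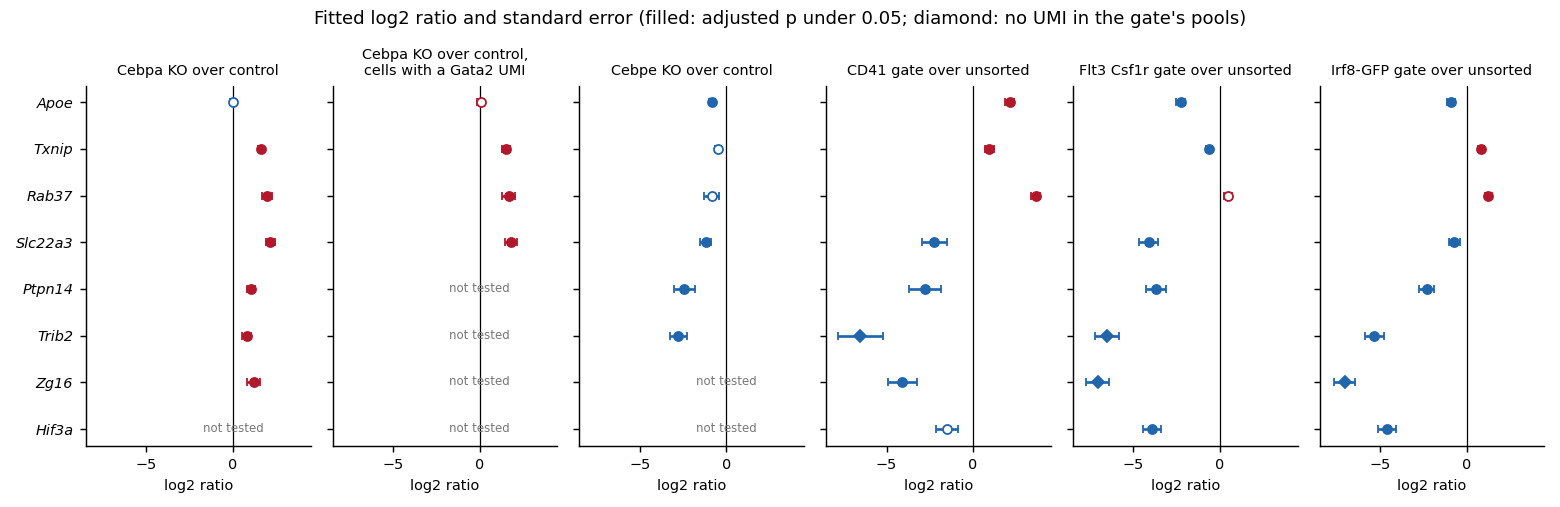
Log2 ratio of each member with its standard error in 6 comparisons, where filled points have an adjusted p under 0.05, open points do not, and diamonds mark a gate without a UMI, whose fitted value is no bound. Slc22a3, Rab37 and Txnip lie to the right in Cebpa KO over control with and without the restriction to cells with a Gata2 UMI, and Apoe lies at 0. In the gates, members with few UMIs passed the filter on low counts only through the unsorted cells in which they were chosen. Nothing is read from their points to the left.

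Partners of the members, from lists of known pathway genes, were counted in the same fits. Over all genes tested, 9.41% were called in each direction in Cebpa KO, 13.5% higher and 9.84% lower in Cebpe KO, 19.5% higher and 21.5% lower in the CD41 gate, and 33.1% higher and 30.6% lower on the FcgR-low side. Each list holds few tested genes, so its counts are a description beside these shares. Of the lipoprotein and cholesterol list around Apoe, 1 of 4 genes tested rose in Cebpa KO, the sterol exporter Abcg1 (log2 1.11, 39.7 ± 20.4 CPM against 19.8 ± 16.5 CPM in control), and 1 fell, the HDL receptor Scarb1 (-0.55). In Cebpe KO 2 of 8 rose, among them Lrp1 (2.42), and in the CD41 gate 3 of 9 rose, with Abcg1 at 2.11, and 1 fell. Of the hypoxia list around Hif3a, 0 of 7 were called in Cebpa KO, and 5 of 15 rose in Cebpe KO, among them the glucose transporter Slc2a1 (2.55) and the growth factor Vegfa (2.04). The FcgR sides of unsorted cells also differed in Car1 and in depth, whose part was not tested. On the FcgR-low side 9 of 13 hypoxia genes fell and 2 rose, with a list median of -0.99 against 0.05 over all genes. The HIF hydroxylase Egln3 was at -4.05, Slc2a1 at -2.92 and Vegfa at -1.85. In the 12 indexed Cebpa and Cebpe pools, 3 of 12 fell and 1 rose, with a list median of -0.51, beside 17.1% of all genes called lower and 13.3% higher.

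Of the arrestin and thioredoxin list around Txnip, 0 of 8 rose and 1 fell in Cebpa KO, where 9.41% of all genes were called each way, mitochondrial thioredoxin Txn2 (-0.38), and 1 of 9 rose and 1 fell in Cebpe KO. Of the Tribbles and COP1 list around Trib2, 2 of 3 fell in Cebpa KO, the deleted gene Cebpa itself and the cell cycle factor E2f1 (-0.68), and the same 2 rose in Cebpe KO. Of the Hippo list around Ptpn14, 0 of 3 were called in Cebpa KO, and 3 of 7 fell in the CD41 gate, where 21.5% of all genes did, among them the adaptor Sav1 (-3.02) and the kinase Lats1 (-2.66). Of the cation and monoamine list around Slc22a3, the 1 gene tested, the histamine-making enzyme Hdc, fell in Cebpa KO (-4.50) to 2.61 ± 3.50 CPM, against 58.9 ± 19.3 CPM in control. Of the secretory Rab list around Rab37, 1 of 5 rose and 1 fell in Cebpa KO, Rab38 (0.78) and Rab3d (-1.08), and 5 of 7 rose in the CD41 gate, where 19.5% of all genes did, among them Rab27b (4.01). Of the lectins around Zg16, Lgals9 rose (1.08) and Lgals1 fell (-2.01) in Cebpa KO, and Lgals1 alone was called within cells with a Gata2 UMI (-1.46).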

How the data were processed

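The authors deposited, per the file headers, a table of UMI counts (genes by wells), a table of wells and, for indexed plates, the fluorescence intensity of CD34 and FcgR per well. The submitters' processing notes name build mm9 and bcl2fastq 2.15.0.4, and for the aligner the sources used here give nothing. Cells with at least 500 UMIs were kept, as deposited, with no doublet caller (wells hold 1 sorted cell). For each pool the counts of its cells were added up, and edgeR 4.0.16 was run on these sums (R 4.3.3; quasi-likelihood test, TMM scaling, Benjamini-Hochberg adjustment over all genes passing the filter on low counts), with batch or pool as a term where groups shared it. All adjusted p-values in the text are from this test, and calls use 0.05. No pool pair matched within counting noise (lowest chi-square per degree of freedom 1.28 over 1431 pairs). Car1, Pf4 and Gata2 classes were cut per cell. The test was checked on simulated counts. Alternatives were DESeq2 1.42.0, other scaling, filters, groupings by label, batches and left-out pools. The members and all lists (lipoprotein, hypoxia, arrestin and thioredoxin, Tribbles, Hippo, cation transport, secretory Rab, lectins and cell type markers) were chosen with earlier results of these data known. The text names the members in each comparison, at most 3 genes of each other list with the largest called ratio, the axis and targeted genes, and the 10 genes most like Apoe; a few genes that these rules pick are not reported here. Depth bins were added after the data were seen.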

Additional observations from a re-analysis of the deposited data

Results flagged for a closer look

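Of 29 sets of pools tested for a value that stands apart, 2 did, and chance gives about 1 in 20. Apoe in Cebpa control pool 6 measured 1131 CPM (343 UMIs), against 605 CPM in the next of the 6 control pools and 373 CPM in the lowest. Trib2 in Irf8-GFP+ MHCII+ pool 5 measured 1.60 CPM, which is 1 UMI, and was 0 in the other 5 pools.

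Ratios of the low over the high side of a surface marker differed between the 12 indexed Cebpa and Cebpe pools and the unsorted pools, by a test of the difference itself (12 pools minus unsorted, log2). For CD34 the differences were -0.90 for Apoe, -1.41 for Slc22a3, -0.79 for Txnip, -2.33 for Hif3a, -1.40 for Ptpn14, -1.71 for Trib2 and -1.85 for Zg16. For FcgR they were -2.07 for Hif3a, -1.45 for Ptpn14 and -1.62 for Trib2. The unsorted ratios come from the cells that chose the members, so nothing is read from these differences.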

How the results depend on the processing

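No paired analysis was possible because the labels give the groups compared no shared replicate numbers, while the surface sides of a pool were fitted with pool as a term. Of 586 log2 ratios of members under an alternative, 528 kept direction and call, 42 lost the call, 10 gained one and 6 reversed. The reversals came from grouping pools by the sample labels: Cebpe KO gave Apoe 1.71, Ptpn14 2.74, Slc22a3 1.63 and Trib2 2.82, and the Flt3+ Csf1r+ gate gave Slc22a3 0.14 and Txnip 0.59. The pools labelled Cebpe control had 0 Cebpe UMIs. By the labels, members called in Cebpe KO were 4 higher and 0 lower (0 and 4 by the table), 2 were lower in the CD41 gate (4 by the table), 2 were lower and 1 higher in the Flt3+ Csf1r+ gate, where 2566 genes were called (4655 by the table), and 1 was higher in the Irf8-GFP+ MHCII+ gate. In addition 1 member was higher in the Flt3+ Csf1r+ gate with cells of at least 1000 UMIs and with only the pools whose label and table name the same group.

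For Cebpa KO, 1208 genes were called in all, 465 with the pools whose label and table name the same group and within SB29, 739 within SB23 and 762 without the plate of control pools 5 and 6, and members called higher were 3 in each batch and in the agreeing pools. In cells with a Gata2 UMI, 190 genes were called, 321 without a filter, 123 within SB23 and 52 within SB29 or the agreeing pools. With no pool term the surface sides gave 0 members higher and 0 lower for both markers and 2833 genes for CD34 (4289 with it). With the outer bins of intensity, members called lower were 0, since Rab37 did not pass the filter, and without the 2 plates that stand apart they were 2, for both markers. Members higher in cells with a Pf4 UMI were 3 after thinning to 1000 UMIs.

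Leaving out 1 of the 6 control pools at a time gave 832 to 1456 genes for Cebpa KO with 4 to 6 members higher and 0 lower, and leaving out 1 of the 6 Cebpe KO and control pools gave 908 to 1651 genes for Cebpe KO with 0 members higher and 3 to 5 lower, the lowest count without control pool 2. Leaving out 1 gate pool gave 1933 to 2178 genes for the CD41 gate with 2 to 3 members higher and 3 lower, 4273 to 4695 for the Flt3+ Csf1r+ gate with 0 and 7, and 4500 to 4761 for the Irf8-GFP+ MHCII+ gate with 2 and 5 to 6. No Cebpa KO pool and no unsorted pool was left out. The agreeing-pool setting was not run for Cebpe KO, which has no such pools. The causes were not tested. Low counts limit Hif3a, Zg16 and Trib2, which hold a few UMIs in some pools.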
